A study of Thermothelomyces thermophilus with 49 samples.

Results

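A set of 200 genes of the thermophilic fungus Thermothelomyces thermophilus was followed through a shift from glucose to cellulose. In the strains lacking clr1 or clr2 these genes were low 4 h after the cellulose spike, while in the parental strain they fell within 1 h and were back near their starting level at 4 h. That pattern was the rule by which the genes were chosen, so it is a description and not a finding. The genes were 200 of the 9292 in the count table. The genes were chosen by these values: counts were scaled to CPM (each gene's share of the library total, multiplied by 1000000), the mean of both replicate cultures was taken, and the log2 of that mean + 1 was compared with steady state within each strain. A gene entered with at least 10 CPM in steady state in every strain, a parental value of -0.8 or lower at 1 h and within 0.4 of 0 at 4 h, and -0.8 or lower at 4 h in both the Δclr1 and the Δclr2 strain. Of the 244 genes that met every threshold, the 200 with the lowest summed 4 h values of the Δclr1 and Δclr2 strains were kept.

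The study asked how the transcription factors Clr1, Clr2 and Clr4 contribute to the response to cellulose. Poly(A) RNA was sequenced from strains BS7.8 (Δku80, Δclr1), BS6.4 (Δku80, Δclr2), JK2.8 (Δku80, Δclr4) and the parental MJK20.3 (Δku80), each a single clone, so that the loss of ku80, a gene of DNA end joining, is common to all of them. Each strain was grown in 2 bioreactor cultures and sampled in exponential growth on glucose (ex), in glucose-limited steady state (SS), and then at 4 times after cellulose was spiked in place of glucose, giving 48 libraries. The first of these times, t1, was 0.5 h after the spike, t2 followed at 1 h, t3 at 2 h, and t4 at 4 h. For the spike a small part of the broth was replaced by glucose-free medium and cellulose, and the fed steady-state culture was continued as a batch. In a change from steady state, the arrival of cellulose and the end of the glucose feed and dilution cannot be told apart. MJK20.3 and BS6.4 were sequenced at one company after RNA purification and DNase treatment, and BS7.8 and JK2.8 at another company without either step. Strains were therefore compared only within a company: BS7.8 with JK2.8, and BS6.4 with MJK20.3. JK2.8 itself lacks clr4, so in a difference between BS7.8 and JK2.8 the loss of clr1 and the loss of clr4 cannot be told apart.

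In fungi, as in other eukaryotes, a growing cell spends much of its transcription on making ribosomes: the ribosomal proteins of the small and large subunit, the factors that process rRNA in the nucleolus, and the initiation and elongation factors that work on the finished ribosome. In budding yeast these genes are known to move together with growth rate and nutrient supply and to fall quickly when a carbon source runs out. Genes for amino acid and nucleotide synthesis supply building blocks to the same process, and genes such as those of the MCM helicase serve DNA replication in dividing nuclei.

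The libraries held between 2567179 and 22212257 counts. The deleted gene was near 0 in its own strain: clr1 (MYCTH_2298863) was between 0 and 1.45 CPM over the BS7.8 libraries, clr2 (MYCTH_38704) between 0 and 0.165 CPM in BS6.4, and clr4 (MYCTH_2296492) between 0 and 0.127 CPM in JK2.8. In the libraries of the other strains clr1 was at 35.3 CPM or more and clr4 at 122 CPM or more, while clr2 ran between 1.14 and 2435 CPM. One library, MJK20.3 t1 R1, stood apart from its partner, with 11.1% of its counts on the 200 genes against 6.69% in MJK20.3 t1 R2, and what set it apart was not tested. The cultures were filtered mycelium, so a lower level per hypha cannot be told apart from fewer expressing hyphae.

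By their gene ontology (GO) terms, 46 of the 200 genes belonged to the ribosome, 5 to translation initiation, 4 to elongation, 3 to ribosome biogenesis, 11 to amino acid synthesis, 3 to nucleotide synthesis, 9 to DNA replication, 2 to respiration, 1 to the mitochondrial ribosome and 1 to protein folding. A further 21 had other terms and 94 had none that could be read. Long gene lists were cut short in the copy used here. Of the 123 genes of the term structural constituent of ribosome 30 were read, and of the 67 of the term ribosome 29. A gene counted with no term may therefore have one, and the role counts may be too low. These terms came from the study's lists of genes that changed in these same cultures, and they were grouped into roles with earlier results known, so the make-up is not independent evidence of direction.

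The values that chose the genes were as follows. The parental change at t2 ran between -3.54 and -0.82 with a median of -1.87, and the parental change at t4 between -0.40 and 0.38 with a median of -0.06. The change at t4 ran between -4.26 and -0.97 in BS7.8 (median -1.95) and between -3.58 and -0.81 in BS6.4 (median -1.55). All of these are differences of log2(CPM + 1). At the edges, MYCTH_2310241 and MYCTH_2310829 were just inside the steady-state minimum at 11.04 and 11.46 CPM, and MYCTH_104717 and MYCTH_112805 just outside at 9.28 and 5.36 CPM. For the parental fall at t2, MYCTH_2296399 (-0.82) and MYCTH_2133483 (-0.82) were inside and MYCTH_2295040 (-0.80) and MYCTH_2308759 (-0.80) outside. For the parental return at t4, MYCTH_2133483 (-0.40) and MYCTH_2310252 (-0.40) were inside and MYCTH_2299575 (-0.40) and MYCTH_2312753 (-0.40) outside, by differences in the third decimal. At t4 in BS7.8, MYCTH_2298956 (-0.97) and MYCTH_64380 (-0.99) were inside and MYCTH_2314123 (-0.79) and MYCTH_2299002 (-0.77) outside. At t4 in BS6.4, MYCTH_2315354 (-0.81) and MYCTH_2302186 (-0.82) were inside and MYCTH_2075102 (-0.80) and MYCTH_2300695 (-0.78) outside. The limit of 200 genes fell between summed values of -2.21 (MYCTH_2295915) and -2.20 (MYCTH_2310252) inside and -2.19 (MYCTH_2307107) and -2.16 (MYCTH_2305652) outside.

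The 200 genes carried a large part of the transcriptome. In BS7.8 they took 18.9% of all counts in exponential growth and 11.6% in steady state, and after the spike 3.94%, 2.87%, 2.53% and 3.00% at t1 to t4 (means of 2 libraries). In JK2.8 they took 18.4% ± 0.466 of all counts in exponential growth and 10.7% ± 0.0330 in steady state (SD, n = 2). After the spike the JK2.8 share was 5.11% ± 0.427 for t1 and 2.37% ± 0.345 for t2, and then 4.54% ± 0.465 for t3 and 8.63% ± 0.144 for t4 (SD, n = 2). The share thus stayed between 2.21% and 4.00% in every BS7.8 library after the spike, and in JK2.8 it was lowest at t2 and had largely returned by t4. BS6.4 held 21.9% and 14.0% before the spike and 5.53%, 3.02%, 2.93% and 4.37% after it, and MJK20.3 held 23.4% and 13.9% before and 8.92%, 3.81%, 6.70% and 13.7% after it. These are shares of the raw library totals.

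**Figure D1:**
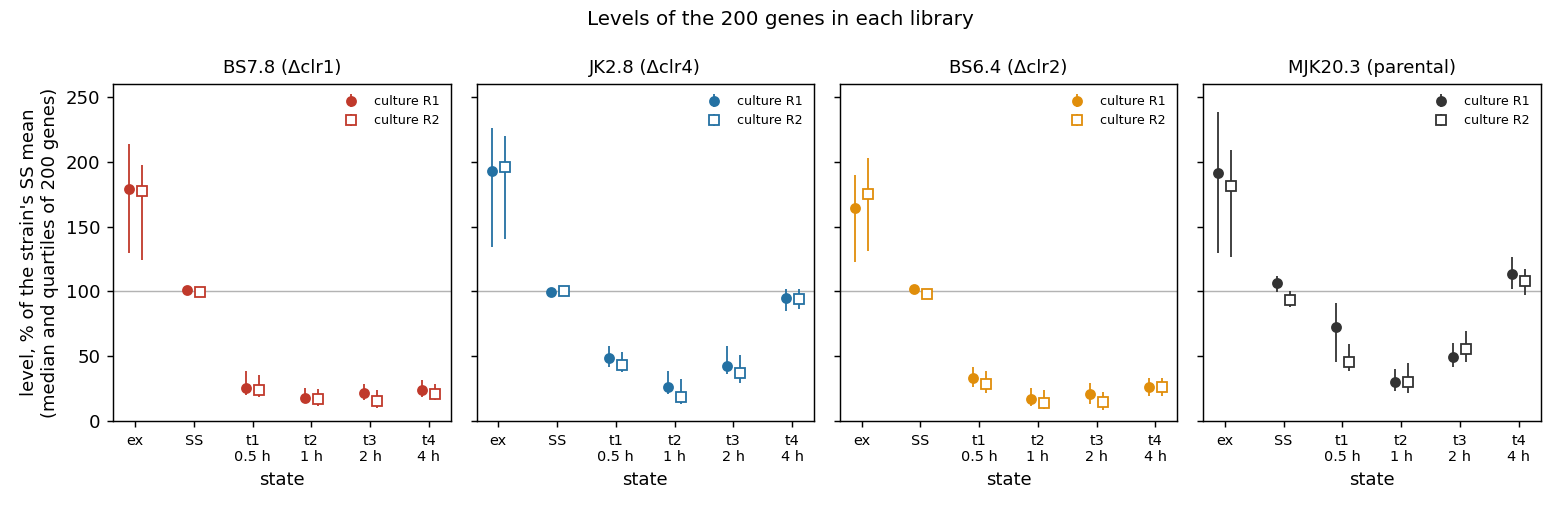
Level of the 200 genes in each library, as a percentage of the steady-state mean of the same strain (vertical axis, TMM-scaled CPM), by state (horizontal axis), with 1 panel per strain; symbols are the medians over the 200 genes for cultures R1 and R2, and vertical lines run between the quartiles. The BS7.8 medians stay between 15.8% and 26.0% at all 4 times after the spike, while the JK2.8 medians sit between 19.0% and 26.1% at t2 and between 94.5% and 95.1% at t4; the fall and return in MJK20.3 and the low t4 levels of BS7.8 and BS6.4 were fixed by the choice of genes.

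The Δclr4 strain JK2.8 had no part in the rule beyond its steady-state minimum, so its time course was a test of whether the fall and return seen in MJK20.3 occurred in a second strain. The genes fell and returned there as well. From here on levels are CPM scaled by the trimmed mean of M values (TMM), and differences are log2 fold changes from edgeR's quasi-likelihood test with Benjamini-Hochberg adjustment over 8565 genes, called at an adjusted p below 0.05. Against steady state, 177 of the 200 genes fell at t1 and 1 rose, where 22.1% of all genes tested fell and 17.9% rose. The gene that rose, MYCTH_86076 (log2 fold change 0.71, edgeR adjusted p = 0.0367), was not called without JK2.8 SS R2 or without JK2.8 t1 R1. At t2, 195 fell and none rose, against 25.8% and 23.5% of all genes tested, with a median log2 fold change of -2.10 and a range of -3.31 to -0.08. At t3, 174 still lay lower and 4 higher, against 21.8% and 16.1%.

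At t4, 10 of the 200 genes were lower than in steady state and 3 were higher, where 8.42% of all genes tested were lower and 8.34% higher. The median log2 fold change was -0.07, the same as the median of -0.07 over all genes tested. Of the 200 genes, 162 (81.0%) lay within 0.4 of 0 at t4, against 64.2% of all genes tested, and the median standard error of these values was 0.23. These are TMM-scaled fold changes, whereas the rule's band of 0.4 was set on log2(CPM + 1) from library totals. Between t2 and t4, 193 genes rose and 1 fell, against 20.7% and 22% of all genes tested, with a median log2 fold change of 2.01 for t4 over t2. In 101 of the 200 genes both t4 libraries lay below both steady-state libraries, which held for 35.5% of all genes tested. The count of 10 lower genes at t4 rested on single libraries and on scaling: leaving out any 1 library of the comparison gave 1 to 3, and scaling by library totals gave 43 with a median of -0.33, the same as the -0.33 of all genes under that scaling.

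**Figure D2:**
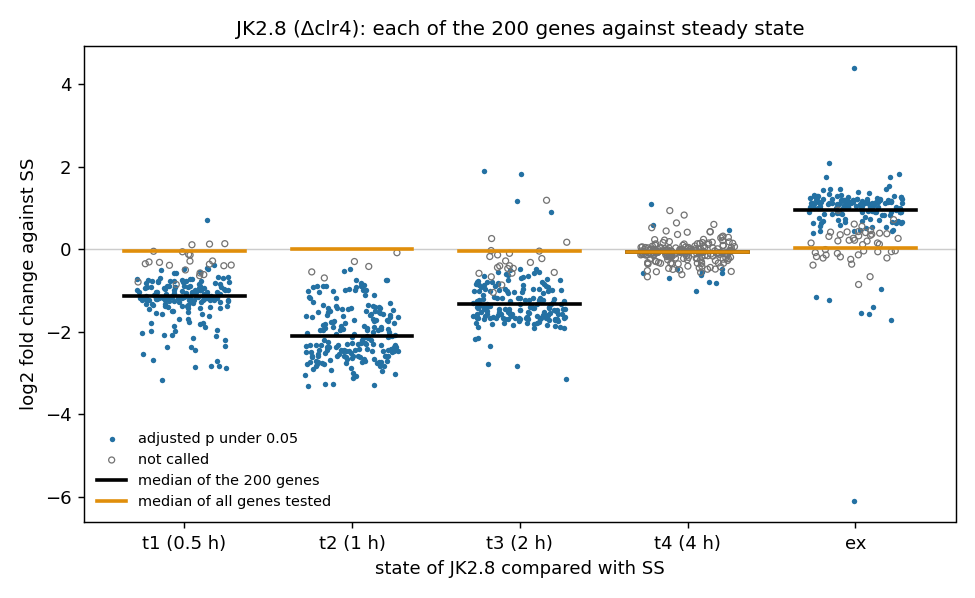
Log2 fold change against JK2.8 steady state (vertical axis, edgeR) of each of the 200 genes at each time after the spike and in exponential growth (horizontal axis); filled points have an adjusted p below 0.05, open points are not called, and bars are the medians of the 200 genes (black) and of all genes tested (orange). The median of the 200 genes is lowest at t2 (-2.10), lies at -1.14 for t1 and -1.33 for t3, and is near 0 at t4 (-0.07) and 0.95 in exponential growth.

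Genes that met every threshold but lay beyond the limit of 200 were set aside. A point of comparison was given by 1202 other genes that fell by at least 0.8 in the parental strain at t2. They had at least 10 CPM in every steady state and failed another threshold of the rule. The median of the 200 genes in JK2.8 was 23.2% of steady state at t2, against 43.8% for these other genes, and 95.1% at t4, against 85.6%. Most of the others were called lower in JK2.8 too: 83.3% at t1 and 89.5% at t2, against 88.5% and 97.5% of the 200 genes. Between t2 and t4, 74.0% of the others rose, against 96.5% of the 200. At t4, 5.00% of the 200 genes were called lower than in steady state, against 19.6% of the others. The 200 genes thus went lower in JK2.8 and came back closer to steady state than the other falling genes. This is a difference of counts and medians for which no test was made. The rule used the parental return at t4, and 237 of the other genes failed that threshold alone. The comparison is therefore not independent of the choice of genes.

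All 46 ribosome genes fell in JK2.8 at t1, t2 and t3, and none was called at t4. Their log2 fold changes lay between -2.995 and -1.49 at t2 (median -2.53) and between -0.24 and 0.13 at t4 (median -0.05). MYCTH_2314609, annotated to the cytosolic small ribosomal subunit (chromosome 2, 2288657 to 2290219 in assembly ASM22609v1), had 1531 and 1551 CPM in JK2.8 steady state, 752 and 681 CPM at t1, 320 and 207 CPM at t2, 586 and 457 CPM at t3, and 1495 and 1486 CPM at t4. Its t2 libraries lay far below both steady-state libraries and its t4 libraries just under them. The log2 fold change was -2.55 at t2 (SE 0.29, edgeR adjusted p = 5.53e-09) and -0.05 at t4 (SE 0.27, edgeR adjusted p = 0.935).

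The large subunit followed the same course. MYCTH_2312253, annotated to assembly of the cytosolic large ribosomal subunit, had 309 and 185 CPM at t2 against 1449 and 1554 CPM in JK2.8 steady state, a log2 fold change of -2.60 (SE 0.31, edgeR adjusted p = 2.18e-08). MYCTH_2313759, an rRNA-binding structural constituent of the ribosome, had 214 and 138 CPM at t2 against 1068 and 1039 CPM in steady state (log2 fold change -2.58). A smaller fall was measured for MYCTH_2315290, of the large subunit, with 323 and 228 CPM at t2 against 832 and 944 CPM in steady state (log2 fold change -1.69). In each of these 3 genes both t2 libraries were below both steady-state libraries.

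All 3 genes of ribosome biogenesis were lower already at t1. MYCTH_2294210, annotated to the nucleolus and to protein folding, had 43.4 and 40.0 CPM at t1 against 331 and 281 CPM in JK2.8 steady state, a log2 fold change of -2.87 (SE 0.34, edgeR adjusted p = 8.51e-08). MYCTH_2300969, of the small-subunit processome that matures rRNA, had 5.70 and 7.40 CPM at t1 against 44.0 and 49.2 CPM in steady state, a log2 fold change of -2.84 (SE 0.38, edgeR adjusted p = 3.86e-07). MYCTH_2306585, annotated to the nucleolus, had 26.0 and 19.0 CPM at t1 against 52.6 and 58.0 CPM in steady state, a smaller log2 fold change of -1.29 (SE 0.26, edgeR adjusted p = 0.000155).

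All 5 initiation genes fell at t1, t2 and t3 in JK2.8, and their medians of 45.1%, 29.8% and 55.3% of steady state lay above those of the ribosome genes at t2 and t3. All 4 elongation genes fell at t2. The most abundant of the 200 genes over all libraries was MYCTH_2298136, an elongation factor with GTPase activity, a class of proteins that drives each step of peptide chain growth on the ribosome (chromosome 1, 7587183 to 7589550). It had 6206 and 6260 CPM in JK2.8 steady state, 4945 and 4837 CPM at t1, 2410 and 2310 CPM at t2, 4638 and 4395 CPM at t3, and 5857 and 6303 CPM at t4. Among the times after the spike it was called only at t2, at a log2 fold change of -1.40 (SE 0.19, edgeR adjusted p = 2.45e-07).

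Biosynthesis of nucleotides and amino acids fell alongside. MYCTH_2303613, an enzyme of de novo IMP synthesis, the trunk of the purine pathway, had 12.7 and 14.2 CPM at t2 against 121 and 114 CPM in JK2.8 steady state (log2 fold change -3.13, SE 0.24, edgeR adjusted p = 1.86e-12). MYCTH_2296847, also of purine synthesis, had 13.1 and 14.4 CPM at t2 against 99.2 and 123 CPM (log2 fold change -3.02). Of the 11 amino acid synthesis genes, 10 fell at t1, 11 at t2 and 7 at t3. The lowest log2 fold change of all 200 genes at t2 was that of MYCTH_2297460, of methionine synthesis, with 38.6 and 39.9 CPM at t2 against 373 and 407 CPM in steady state (log2 fold change -3.31, SE 0.21, edgeR adjusted p = 1.26e-14), and at t4 it had 232 and 272 CPM, below both steady-state libraries.

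All 9 DNA replication genes fell at t1, t2 and t3, and none was called at t4, where their log2 fold changes lay between -0.48 and -0.14. MYCTH_2302775, a subunit of the MCM helicase that opens replication origins, had 152 and 144 CPM in JK2.8 steady state, 64.1 and 51.5 CPM at t1, 35.8 and 23.1 CPM at t2, 73.5 and 58.3 CPM at t3, and 116 and 119 CPM at t4. Its log2 fold change at t2 was -2.31 (SE 0.27, edgeR adjusted p = 1.14e-08), and its t4 libraries had not reached either steady-state library. MYCTH_2316642, of the proton-transporting ATP synthase, which makes ATP from the respiratory proton gradient, had 1215 and 1079 CPM at t2 against 2226 and 2378 CPM in steady state, a log2 fold change of -1.005 (SE 0.17, edgeR adjusted p = 9.9e-06).

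**Figure D3:**
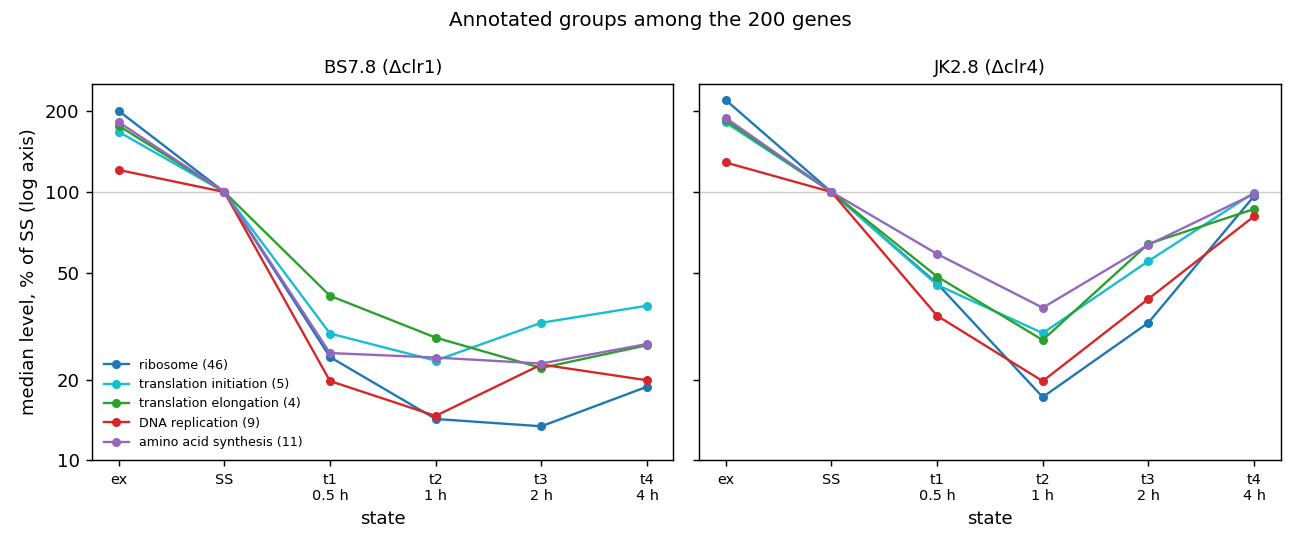
Median level of 5 role groups as a percentage of steady state of the same strain (vertical log axis), by state (horizontal axis), in BS7.8 (left) and JK2.8 (right); each line is a role group, with its number of genes in the key. The ribosome genes sit at 18.8% of steady state in BS7.8 and at 96.6% in JK2.8 at t4.

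Not all of the 200 genes kept to this course. In JK2.8, 173 genes had their lowest level at t2, 14 at t1 and 13 at t3. This was not counted over all genes tested. The median of the 1202 other falling genes in JK2.8 was also lowest at t2, at 43.8% of steady state, against 53.3% at t1 and 62.9% at t3. Among the 4 genes that rose above steady state at t3, none has a GO term listed. MYCTH_2312551 (chromosome 7, 2560780 to 2563241) had 271 and 288 CPM in JK2.8 steady state, 66.7 and 62.6 CPM at t1, 47.2 and 68.3 CPM at t2, 833 and 1149 CPM at t3, and 358 and 484 CPM at t4. It was thus low at t1 and t2 and above every earlier library at t3, with a log2 fold change at t3 against steady state of 1.83 (SE 0.19, edgeR adjusted p = 3.16e-09).

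MYCTH_2310241 had 26.5 and 55.0 CPM at t3 against 11.9 and 10.1 CPM in JK2.8 steady state (log2 fold change 1.89, SE 0.34, edgeR adjusted p = 4.32e-05). MYCTH_2297319 had 90.7 and 102 CPM at t3 and 88.9 and 91.6 CPM at t4, against 39.1 and 46.1 CPM in steady state, with log2 fold changes of 1.18 (SE 0.20, edgeR adjusted p = 1.89e-05) and 1.09 (SE 0.20, edgeR adjusted p = 0.00016). Both genes were higher in every t3 library than in either steady-state library. MYCTH_2095451, the fifth most abundant of the 200 genes, had 2827 and 3682 CPM at t3 against 1534 and 1957 CPM in steady state (log2 fold change 0.90, SE 0.28, edgeR adjusted p = 0.0108), a call that was lost without JK2.8 SS R1 (0.76, adjusted p = 0.105) or without JK2.8 t3 R2 (0.69, adjusted p = 0.124).

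MYCTH_2124085 went the other way. It had 27.03 and 19.9 CPM at t2 against 27.5 and 30.7 CPM in JK2.8 steady state (log2 fold change -0.30, SE 0.22, edgeR adjusted p = 0.279), then 4.22 and 4.23 CPM at t3 (log2 fold change -2.77, SE 0.25, edgeR adjusted p = 9.45e-11) and 14.7 and 13.9 CPM at t4 (log2 fold change -1.02, SE 0.23, edgeR adjusted p = 0.00151). Its lowest point was thus t3, and it was still below steady state at t4. With library totals in place of TMM it was called already at t2 (-0.59, edgeR adjusted p = 0.0249).

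**Figure D4:**
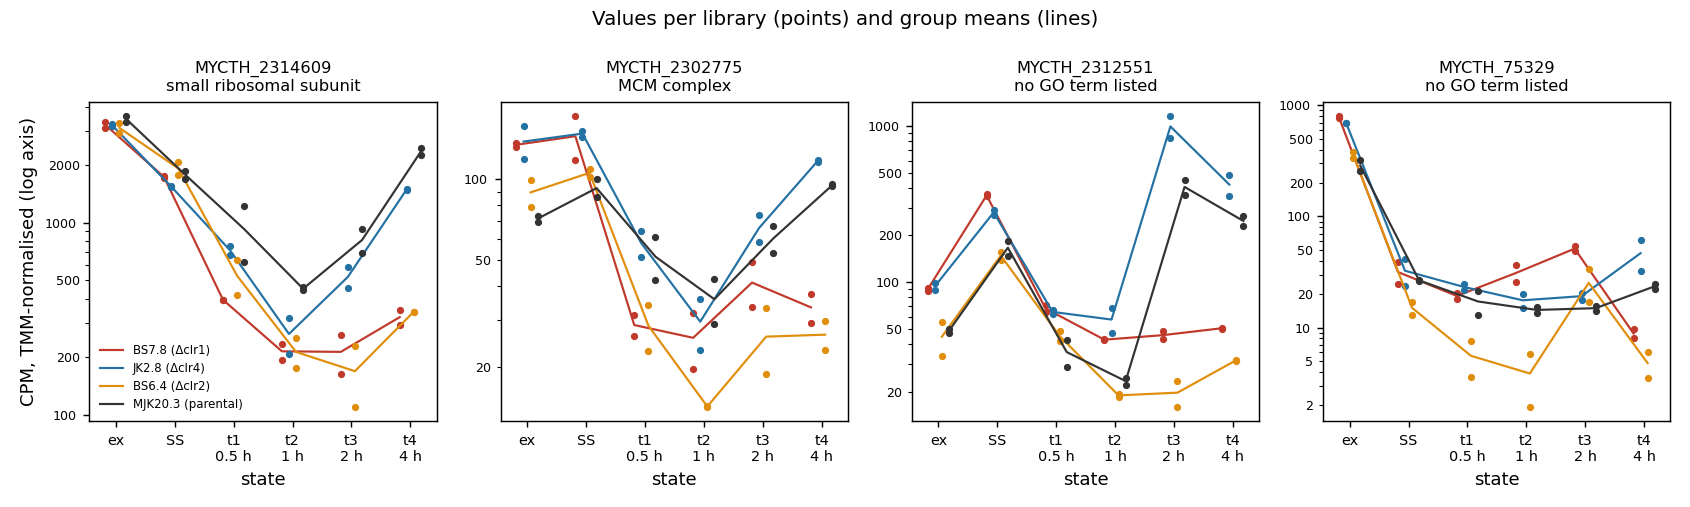
Level of 4 of the genes in every library (points, TMM-scaled CPM, vertical log axis) by state (horizontal axis), with lines through the means of each strain: the small-subunit ribosome gene MYCTH_2314609, the MCM subunit MYCTH_2302775 and the genes MYCTH_2312551 and MYCTH_75329, which have no GO term listed. At t3, MYCTH_2312551 has 48.8 and 43.1 CPM in BS7.8 against 833 and 1149 CPM in JK2.8, and MYCTH_75329 has 693 and 698 CPM in JK2.8 in exponential growth against 41.3 and 23.6 CPM in steady state.

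Exponential growth on glucose, which the rule did not use, asked whether the same genes also differed between fast and glucose-limited growth. In JK2.8, 148 of the 200 genes were higher in exponential growth than in steady state and 8 were lower, where 25.6% of all genes tested were higher and 22.1% lower. The median log2 fold change was 0.95, against 0.04 over all genes tested. In 169 genes both exponential libraries lay above both steady-state libraries, which held for 40.2% of all genes tested. Among the 1202 other falling genes, 37.8% were higher in exponential growth than in steady state.

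All 46 ribosome genes were higher in exponential growth, with log2 fold changes between 0.95 and 1.37 in JK2.8. MYCTH_2314609 of the small subunit had 3163 and 3246 CPM in exponential growth against 1531 and 1551 CPM in steady state, a log2 fold change of 1.06 (SE 0.27, edgeR adjusted p = 0.00187). All 5 initiation genes, all 4 elongation genes, all 3 nucleotide synthesis genes and 9 of the 11 amino acid synthesis genes were higher too. Of the 9 DNA replication genes 2 were called higher, with a median of 129% of steady state against 220% for the ribosome genes, and the MCM gene MYCTH_2302775 had 119 and 158 CPM in exponential growth against 152 and 144 CPM in steady state, values that overlapped.

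The widest differences were in genes with no GO term listed. MYCTH_75329 had 693 and 698 CPM in exponential growth against 41.3 and 23.6 CPM in JK2.8 steady state (log2 fold change 4.40, SE 0.33, edgeR adjusted p = 5.23e-12). In contrast, MYCTH_85902 had 0.861 and 0.406 CPM in exponential growth, from 8 and 6 counts, against 50.5 and 30.7 CPM in steady state (log2 fold change -6.09, SE 0.68, edgeR adjusted p = 3.77e-08). MYCTH_2298844 was also lower, with 16.7 and 15.2 CPM in exponential growth against 47.5 and 58.0 CPM in steady state (log2 fold change -1.72, SE 0.24, edgeR adjusted p = 6.89e-07). None of the 8 genes that were lower in exponential growth had a GO term listed.

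Before the spike, the strains could be compared in exponential growth, since the rule used their steady states. None of the 200 genes was called in BS7.8 against JK2.8 or in BS6.4 against MJK20.3 by edgeR's quasi-likelihood test or by DESeq2, where 0.0117% and 0.0234% of all genes tested were called lower and higher in BS7.8, and 0% in both directions in BS6.4. At an unadjusted p below 0.05 there were 0 lower and 0 higher in BS7.8, against 1.31% and 1.25% of all genes tested, and 4 lower and 1 higher in BS6.4, against 2.63% and 1.86%. The log2 fold changes of the 200 genes lay between -0.47 and 0.74 in BS7.8 (median 0.03) and between -0.50 and 0.58 in BS6.4 (median -0.08).

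The strain comparisons at 0.5 h and 2 h asked when the levels parted. The rule used neither time, but it did use t4 of BS7.8 and BS6.4 and t2 and t4 of MJK20.3, which came from the same cultures. At t1, 135 of the 200 genes were lower in BS7.8 than in JK2.8 and 9 were higher, where 23% of all genes tested were lower and 20.9% higher, with a median log2 fold change of -0.73. Of the 200 genes, 141 were lower in BS6.4 than in MJK20.3 at t1 and 5 were higher, where 16% were lower and 12.8% higher, with a median of -0.91. Much of the t1 difference in BS6.4 rested on the library MJK20.3 t1 R1: without it the median was -0.44 and the count of 141 was 49, and 1 of the 46 ribosome genes was called lower, against 46 with it. Without BS6.4 t1 R2 the count of 141 was 84. Without BS7.8 t1 R2 the count of 135 was 82, and without JK2.8 t1 R1 it was 83.

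At t3 more of the genes were called. In BS7.8 172 of the 200 genes were lower than in JK2.8 and 2 were higher, where 19.9% of all genes tested were lower and 21.4% higher, with a median of -1.04. In BS6.4 191 were lower than in MJK20.3 and 1 was higher, where 24.3% were lower and 21.5% higher, with a median of -1.60. In 183 genes both BS7.8 libraries lay below both JK2.8 libraries, which held for 33.2% of all genes tested, and in 193 genes both BS6.4 libraries lay below both MJK20.3 libraries, which held for 35.9%. The 167 genes lower in both t3 comparisons compare with 14.0% of all genes tested, and the 106 lower at t1 and t3 in both strain pairs with 5.51%. Without MJK20.3 t1 R1 the count of 106 was 32. Of the 1202 other falling genes, 25.0% were lower in BS7.8 than in JK2.8 at t3 (median -0.17) and 35.1% in BS6.4 than in MJK20.3 (median -0.30). These other genes had failed the rule, 35 of them on the t4 threshold of BS7.8 alone and 78 on that of BS6.4 alone. Their contrast with the 200 genes was therefore partly fixed by the choice of genes. With library totals in place of TMM, which moved the median of all genes by 0.31 and 0.32, the counts of 172 and 191 were 131 and 176.

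**Figure D5:**
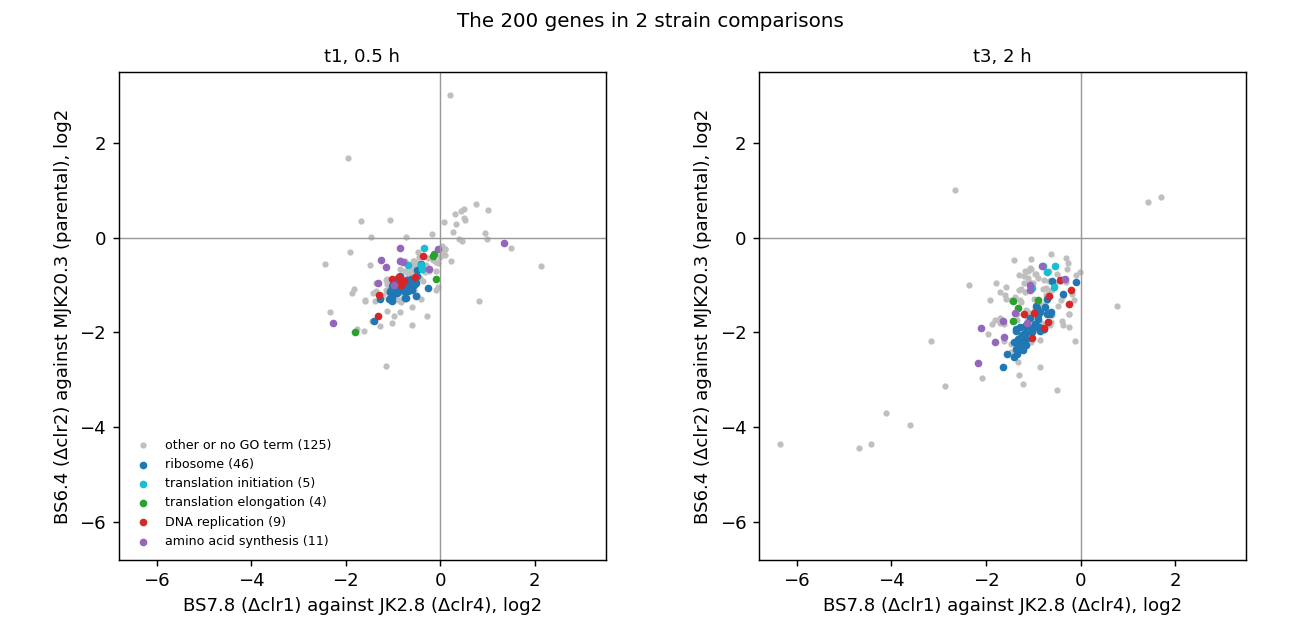
Log2 fold change of each of the 200 genes in BS7.8 against JK2.8 (horizontal axis) and in BS6.4 against MJK20.3 (vertical axis), at t1 (left) and t3 (right), from edgeR, coloured by role group. The median is -0.73 and -0.91 at t1, where -0.91 becomes -0.44 without MJK20.3 t1 R1, and -1.04 and -1.60 at t3; the strain pairs share no library.

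At t3 all 46 ribosome genes were lower in BS6.4 than in MJK20.3 and 44 were lower in BS7.8 than in JK2.8, with medians of -1.95 and -1.15. MYCTH_2314609 of the small subunit had 261 and 163 CPM in BS7.8 against 586 and 457 CPM in JK2.8 (log2 fold change -1.30, SE 0.28, edgeR adjusted p = 0.000284). It had 227 and 110 CPM in BS6.4 against 697 and 925 CPM in MJK20.3 (log2 fold change -2.27, SE 0.29, edgeR adjusted p = 8.77e-08). In neither pair did the libraries overlap, and for MYCTH_2312253 of the large subunit the log2 fold changes were -1.37 in BS7.8 and -2.35 in BS6.4.

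All 5 initiation genes, all 4 elongation genes and all 3 nucleotide synthesis genes were lower in both strain pairs at t3. The elongation factor MYCTH_2298136 had 1678 and 1697 CPM in BS7.8 against 4638 and 4395 CPM in JK2.8 (log2 fold change -1.42, SE 0.19, edgeR adjusted p = 3.51e-07). In BS6.4 it had 2826 and 2462 CPM against 6185 and 7087 CPM in MJK20.3 (log2 fold change -1.33, SE 0.19, edgeR adjusted p = 9.43e-07). MYCTH_66068, also an elongation factor GTPase, was apart already at t1, with 41.6 and 41.3 CPM in BS7.8 against 137 and 153 CPM in JK2.8 (log2 fold change -1.81), and 32.8 and 27.6 CPM in BS6.4 against 157 and 82.2 CPM in MJK20.3 (log2 fold change -1.98, or -1.45 without MJK20.3 t1 R1). The purine gene MYCTH_2303613 had 17.9 and 14.0 CPM in BS7.8 against 66.2 and 57.7 CPM in JK2.8 at t3 (log2 fold change -1.95), and 2.84 and 3.46 CPM in BS6.4 against 12.1 and 13.9 CPM in MJK20.3 (log2 fold change -2.03).

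Of the 11 amino acid synthesis genes, 10 were lower in BS7.8 than in JK2.8 at t3 and 11 in BS6.4 than in MJK20.3. MYCTH_2313212, of amino acid synthesis, had 40.7 and 37.0 CPM in BS7.8 against 167 and 167 CPM in JK2.8 (log2 fold change -2.10, SE 0.14, edgeR adjusted p = 1.06e-13). It had 28.9 and 31.8 CPM in BS6.4 against 129 and 98.3 CPM in MJK20.3 (log2 fold change -1.91, SE 0.15, edgeR adjusted p = 5.33e-12). Of the 9 DNA replication genes, 7 were lower in BS7.8 and 9 in BS6.4 at t3.

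At t1 the amino acid genes did not move as one. MYCTH_2297263, annotated to arginine synthesis and to the pyruvate dehydrogenase complex, had 33.0 and 37.7 CPM in BS7.8 against 165 and 177 CPM in JK2.8 (log2 fold change -2.27, SE 0.20, edgeR adjusted p = 2.03e-11). In BS6.4 it had 35.1 and 32.1 CPM against 137 and 98.0 CPM in MJK20.3 (log2 fold change -1.81, SE 0.21, edgeR adjusted p = 5.38e-08, or a log2 fold change of -1.54 without MJK20.3 t1 R1). MYCTH_2312789, also of arginine synthesis, was higher, with 157 and 156 CPM in BS7.8 against 68.8 and 53.5 CPM in JK2.8 (log2 fold change 1.35, SE 0.23, edgeR adjusted p = 1.71e-05), while in BS6.4 its 55.2 and 97.1 CPM overlapped the 109 and 56.0 CPM of MJK20.3.

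The change of the strain difference between t1 and t3 was tested as an interaction. It was more negative at t3 than at t1 for 41 of the 200 genes and more positive for 10 in BS7.8 against JK2.8, where 11.1% and 9.83% of all genes tested were called. In BS6.4 against MJK20.3 it was more negative for 70 and more positive for 1, where 11% and 8.72% were called, and the count of 70 was 101 with the culture as a block, 42 with library totals, and between 37 and 120 when 1 library was left out, 120 being the count without MJK20.3 t1 R1 and 37 that without BS6.4 t3 R2. The median interaction of the 200 genes in BS7.8 was -0.28, against 0.07 over all genes tested. With library totals it was -0.04, against 0.33 over all genes. Under that scaling 33 of the 200 were more negative and 16 more positive, where 619 and 1821 of the 8565 genes tested were called. In BS6.4 the median interaction of the 200 genes was -0.75, or -1.09 without MJK20.3 t1 R1. The counts without MJK20.3 t1 R2, MJK20.3 t3 R2 and BS6.4 t1 R1 were 41, 40 and 42. None of the 46 ribosome genes was called in BS7.8 and 18 were in BS6.4, or 43 without MJK20.3 t1 R1. MYCTH_2313212 was called in both, at -1.26 (SE 0.19, edgeR adjusted p = 1.35e-05) and -1.69 (SE 0.21, edgeR adjusted p = 3.34e-07), the second being -1.81 without MJK20.3 t1 R1.

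Of the 4 genes that exceeded steady state at t3 in JK2.8, 3 had the lowest log2 fold changes of all 200 genes in both strain pairs at t3. The JK2.8 t3 libraries that singled them out are also the reference for BS7.8, so low values in that pair were partly built in. The pair of BS6.4 and MJK20.3 shares no library with them. At t3 MYCTH_2312551 had 48.8 and 43.1 CPM in BS7.8 against 833 and 1149 CPM in JK2.8 (log2 fold change -4.43, SE 0.22, edgeR adjusted p = 1.83e-17). It had 16.0 and 23.4 CPM in BS6.4 against 363 and 451 CPM in MJK20.3 (log2 fold change -4.36, SE 0.23, edgeR adjusted p = 1.38e-16). At t1 its levels had overlapped between BS7.8 (71.9 and 64.1 CPM) and JK2.8 (66.7 and 62.6 CPM), and the interaction was -4.50 (SE 0.28) and -4.71 (SE 0.31) in the BS7.8 and the BS6.4 pair, the second being -5.02 without MJK20.3 t1 R1.

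MYCTH_2095451 had 119 and 134 CPM in BS7.8 against 2827 and 3682 CPM in JK2.8 at t3 (log2 fold change -4.69, SE 0.32, edgeR adjusted p = 1.7e-13). It had 250 and 168 CPM in BS6.4 against 4214 and 4882 CPM in MJK20.3 (log2 fold change -4.44, SE 0.32, edgeR adjusted p = 5.99e-13). At t1 it had stood at 884 and 1256 CPM in BS7.8 against 612 and 892 CPM in JK2.8, so that the levels overlapped at 0.5 h and were far apart at 2 h. MYCTH_2310241 had 0.237 and 0.745 CPM in BS7.8, from 3 and 9 counts, against 26.5 and 55.0 CPM in JK2.8 (log2 fold change -6.35, SE 0.48, edgeR adjusted p = 1.67e-12). It had 0.710 and 0.989 CPM in BS6.4, from 4 and 6 counts, against 17.5 and 17.9 CPM in MJK20.3 (log2 fold change -4.35, SE 0.52, edgeR adjusted p = 2.95e-08).

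MYCTH_2295989, the seventh most abundant of the 200 genes and without a listed GO term, changed sides. At t1 it had 1892 and 2065 CPM in BS7.8 against 972 and 987 CPM in JK2.8 (log2 fold change 1.01, SE 0.16, edgeR adjusted p = 2.86e-06) and 1226 and 1144 CPM in BS6.4 against 817 and 755 CPM in MJK20.3 (log2 fold change 0.59, SE 0.16, edgeR adjusted p = 0.00467, or a log2 fold change of 0.65 without MJK20.3 t1 R1). At t3 it had 523 and 486 CPM in BS7.8 against 943 and 949 CPM in JK2.8 (log2 fold change -0.91, SE 0.16, edgeR adjusted p = 2.04e-05) and 386 and 312 CPM in BS6.4 against 622 and 629 CPM in MJK20.3 (log2 fold change -0.84, SE 0.16, edgeR adjusted p = 5.27e-05). It was thus higher at 0.5 h and lower at 2 h in BS7.8 than in JK2.8 and in BS6.4 than in MJK20.3.

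The genes called higher at t3 in BS7.8 than in JK2.8, or in BS6.4 than in MJK20.3, were MYCTH_75329 and MYCTH_111214. The second was named after its values were seen. MYCTH_75329 had 53.8 and 48.8 CPM in BS7.8 against 20.5 and 17.9 CPM in JK2.8 (log2 fold change 1.43, SE 0.31, edgeR adjusted p = 0.000446). MYCTH_111214 had 556 and 358 CPM in BS7.8 against 142 and 139 CPM in JK2.8 (log2 fold change 1.70, SE 0.28, edgeR adjusted p = 1.14e-05), and 1464 and 796 CPM in BS6.4 against 649 and 594 CPM in MJK20.3 (log2 fold change 0.86, SE 0.28, edgeR adjusted p = 0.011). The call in BS6.4 was lost without BS6.4 t3 R1 (0.36, adjusted p = 0.365) or without MJK20.3 t3 R2 (0.80, adjusted p = 0.0813).

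The pathway lists hold only genes that the study listed as changed in these cultures, and long lists were cut short in the copy used here. They are therefore not whole pathways: 7 of the 9 genes of the term for the cytosolic small ribosomal subunit were listed and 8 of the 10 for the cytosolic large subunit. Of the listed and tested genes, 7 of 7 and 7 of 8 were among the 200, as were 4 of 11 under the separate term for the large ribosomal subunit, 4 of 6 listed elongation factor genes and 3 of 4 genes of lysine synthesis by the aminoadipate route of fungi. The mitochondrial ribosome was almost absent, with 1 of 15 small-subunit genes and 0 of 15 large-subunit genes, though 14 and 14 of them fell in JK2.8 at t2 (medians -1.32 and -1.39). At t3 in BS7.8 against JK2.8, 2 of the 15 small-subunit and 0 of the 15 large-subunit mitochondrial genes were lower (medians -0.27 and -0.10), against 7 of 7 small-subunit and 7 of 8 large-subunit cytosolic genes (medians -1.26 and -0.84). Nearly all of these cytosolic genes were among the 200, chosen for low t4 levels in BS7.8 and BS6.4, while almost none of the mitochondrial genes was. This contrast was therefore partly fixed by the choice of genes. In BS6.4 against MJK20.3 the mitochondrial counts were 14 and 13 of 15 (medians -0.81 and -0.77). None of the 5 tested genes of RNA polymerase I transcription and none of the 4 of the box C/D snoRNP, both of which serve rRNA production, was among the 200, although 5 of 5 and 4 of 4 fell in JK2.8 at t2 (medians -2.44 and -2.80). Because the lists hold genes called changed after the spike in these strains, JK2.8 among them, falls of listed genes were partly fixed in advance.

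The 200 genes were spread over all 7 chromosomes, between 1.42% of the tested genes of chromosome 6 and 2.90% of those of chromosome 7. Their spans had a median of 1652 bp against 1781 bp for all genes tested, and their median level in JK2.8 steady state was 332 CPM against 40.8 CPM. There were 13 pairs of neighbouring genes with both members in the set. MYCTH_2312501 and MYCTH_2085059 (chromosome 7, 2509322 to 2510892 and 2510893 to 2512197) abut, and MYCTH_2297518 and MYCTH_2313899 (chromosome 1, 6498556 to 6499947 and 6499901 to 6501012) overlap. Whether the counting used strand is not given in the sources used here, so reads at such borders cannot be told apart. These 4 genes were named for their positions after the values were seen.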

How the data were processed

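The deposited count table held whole-number counts per gene for 48 libraries, which the authors made by quality control with FastQC, alignment with STAR to ASM22609v1 and counting with a program not given in the sources used here. JK2.8 t4 R2 was run on 2 flow cells and stands as 1 column. Replicates were separate bioreactor cultures. GO terms were taken from the study's supplementary lists, of which long ones were cut short in the copy used. No sequence or product name was used here. The genes, role groups, lists and tests were chosen with earlier results of these data known.

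Genes with few counts were removed (filterByExpr, minimum count 10), leaving 8565 of 9292, and all 200 chosen genes passed. Counts were TMM-scaled and fitted with edgeR 4.0.16 (glmQLFit, glmQLFTest, R 4.3.3) in 1 model with 24 groups of strain and state, at an adjusted p of 0.05 over all genes tested. MJK20.3, BS7.8 and BS6.4 were not tested against their own steady state, because the rule used those values. Genes were named by a fixed rule: the 10 with the highest mean CPM, up to 4 of each role, and the edges of the rule. It also took the 3 lowest and 3 highest in JK2.8 at t2, at t4 and in exponential growth against steady state, and in the 2 interactions. Alternatives were DESeq2 1.42.0, its size factors, library totals, no low-count filter, a minimum absolute log2 fold change of 1, the compared strains alone, no exponential libraries, a replicate block and each library left out. R1 and R2 mark the same culture across the states of a strain, by the design. The correlation of same-numbered deviations over 15 pairs of states had a median of 0.25 in JK2.8, 0.22 in BS7.8, 0.085 in BS6.4 and 0.040 in MJK20.3. With 2 cultures per group, depths of 2567179 to 22212257 counts limit low genes most.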

Additional observations from a re-analysis of the deposited data

Results flagged for a closer look

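The strain difference at t3 differed from that at t1, by the interaction term, for 41 of the 200 genes in the negative direction in BS7.8 against JK2.8 and for 70 in BS6.4 against MJK20.3. Among the genes described above, MYCTH_2095451 had interactions of -5.20 and -4.86 on the log2 scale in the BS7.8 and the BS6.4 pair. MYCTH_2312551 had -4.50 and -4.71, and MYCTH_2310241 had -4.69 and -4.71. MYCTH_2297319 had -1.72 and -2.24, MYCTH_2295989 had -1.92 and -1.43, and MYCTH_2313212 had -1.26 and -1.69. The elongation factor MYCTH_2298136 had -1.26 and -0.94, the second losing its call without MJK20.3 t1 R2, MJK20.3 t3 R2 or BS6.4 t1 R2. The opposite direction was measured for MYCTH_75329, with 1.70 and 2.40. The following were called in 1 pair, and whether the pairs differ was not tested. In BS7.8 against JK2.8, MYCTH_2312789 of arginine synthesis had -1.68, MYCTH_2297263 had 1.14, MYCTH_2312501 had 1.16 and MYCTH_2085059 had 0.95, the last 3 losing their call without BS7.8 t3 R1 and MYCTH_2312501 also without BS7.8 t1 R2, JK2.8 t1 R2 or JK2.8 t3 R2. In BS6.4 against MJK20.3, the small-subunit gene MYCTH_2314609 had -1.46, and its call was lost without MJK20.3 t1 R2, MJK20.3 t3 R2, BS6.4 t1 R1 or BS6.4 t3 R2.

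Without MJK20.3 t1 R1, the library that stood apart, the interactions in BS6.4 against MJK20.3 were -5.03 for MYCTH_2095451, -5.02 for MYCTH_2312551, -4.76 for MYCTH_2310241, -2.998 for MYCTH_2297319, -1.49 for MYCTH_2295989, -1.81 for MYCTH_2313212, -1.27 for MYCTH_2298136, 2.72 for MYCTH_75329 and -2.03 for MYCTH_2314609. None of these changed direction.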

How the results depend on the processing

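Over all alternatives, 148 values of the 15 main counts stayed within 1.5 times and 21 moved further. The t4 count of JK2.8 (10 genes lower) was 43 with library totals, 6 without the exponential libraries, 1 to 3 with 1 library left out and 1 at an absolute log2 fold change of at least 1. That limit also gave 96 genes higher in exponential growth, 48 lower at t1 and 108 at t3 in BS7.8 against JK2.8, and 74 lower at t1 in BS6.4 against MJK20.3. Leaving out 1 library gave 49 to 134 at t1 in BS6.4, 82 to 121 at t1 in BS7.8, and 37 to 120 for the interaction in BS6.4, which was 42 with library totals. Of the alternative values of single genes, 938 kept direction and call, 41 lost the call, 1 gained it and 3 changed sign. MYCTH_2314609 at t4 in JK2.8 lay near 0 throughout: it was 0.0014 with the compared strains alone, ran between -0.0542 and 0.0225 with 1 library left out, and was -0.31 with library totals. MYCTH_2302775 in exponential growth against steady state in JK2.8 ran between -0.324 and 0.0924 with 1 library left out. Calls lost with 1 library left out were those of MYCTH_2297460, MYCTH_2307131 and MYCTH_2308456 at t4, MYCTH_86076 at t1, MYCTH_2095451 at t3 and MYCTH_2124085 between t2 and t4 in JK2.8, MYCTH_2309812 at t3 in BS7.8, MYCTH_111214 at t3 in BS6.4, and the interactions of MYCTH_2314609 and MYCTH_2298136 in BS6.4 and of MYCTH_2312501, MYCTH_2085059 and MYCTH_2297263 in BS7.8. Of these, MYCTH_86076 and MYCTH_2309812 also lost the call with library totals and with the compared strains alone, MYCTH_86076 without the exponential libraries, and MYCTH_2307131 with library totals. The cause was not tested.

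With the culture as a replicate block, the counts in JK2.8 were 179 at t1, 195 at t2, 177 at t3, 15 lower at t4, 195 higher at t4 over t2 and 153 higher in exponential growth, and the interactions gave 49 in BS7.8 and 101 in BS6.4. All genes called without the block stayed called with it.

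The rule itself depends on scaling: with TMM-scaled CPM, 371 genes met every threshold and 151 of the 200 were kept. Strain and company cannot be told apart across companies, each strain was 1 clone, and 2 cultures per group measure the spread only roughly. Genes with no listed GO term (94) could not be placed in a role.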
